A study of Oncorhynchus mykiss with 24 samples.

Results

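Gene expression was compared between rainbow trout embryos at 28 days post fertilisation (dpf), when hatching began, and embryos at 19 dpf, when the tail was already flexing inside the egg. All arrays labelled with either age were used, which gave 16 of the 24 arrays of the series and 32 of its 48 embryos, 16 at each age. At 28 dpf, and likewise at 19 dpf, there were 4 OSU/CW females, 4 OSU/OSU females, 4 OSU/CW males and 4 OSU/OSU males. OSU and CW (Clearwater) are clonal trout lines of slow and fast embryonic development, and OSU/CW or OSU/OSU is the genotype at a major locus for development rate. All embryos belonged to 1 fourth-generation backcross (BC4) family, from sperm of a BC3 male of genotype OSU/CW and OSU eggs, so they share most of the OSU background and do not sample the variation of other trout. Each array held total RNA of 2 whole embryos of the same sex and age but different genotype, labelled with different dyes (Cy3 or Cy5). Because whole embryos were extracted, fewer cells of a type and less RNA per cell cannot be told apart.

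Between tail flexing and hatching a trout embryo lives on its yolk, lays down most of the fast muscle of its trunk, and brings the eye lens, gut, liver and gills towards use. Fast muscle contracts when calcium released from the sarcoplasmic reticulum binds troponin on the thin filament and frees myosin to pull, and parvalbumin then takes up the calcium so that the fibre can relax. Hatching enzymes secreted by gland cells digest the egg envelope at the end of this time, and in trout the red cells that circulate in the embryo are later replaced by a larval and adult population with other globin chains.

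The array carried 16028 expressed sequence tags (ESTs) from salmonids, here called features, each with the description that the array design gives it or with none. Values are log2 normalised intensities, so that a difference of 1 is a doubling, and a feature was tested where it exceeded most negative control spots in at least 16 of the 32 channels. This held for 10579 features, of which 7927 had a description. Signal over background was higher at 28 dpf, with 2.54 ± 0.48 (SD, n = 8 arrays) against 1.90 ± 0.49 at 19 dpf (n = 8 arrays; exact permutation test, two-sided p = 0.0174). The gap lay in the Cy3 channel, with 2.92 at 28 dpf and 1.76 at 19 dpf, while the Cy5 channel averaged 2.17 at 28 dpf and 2.03 at 19 dpf (exact permutation p = 0.5253). Counts of most groups, though not of all, are therefore also given with signal over background as a covariate and without 19 dpf arrays 15 and 19. These had the lowest signal over background (1.29 and 1.42, mean of both channels). Raw signal before background correction went the other way, with a median over channels of 2203.7 at 28 dpf and 5301.1 at 19 dpf. 
Expression differed between the ages for 1858 of 10579 features, or 17.6% (limma with the array as a block, Benjamini-Hochberg false discovery rate 0.05). At 28 dpf 991 features (9.37%) were higher and 867 (8.2%) lower, and the median difference over all features was 0.019. Differences were larger on the higher side. At least 2-fold differences were found for 357 features higher (3.37%) and 225 lower (2.13%), and at least 4-fold ones for 61 higher and 5 lower. The values of the 28 dpf and 19 dpf embryos did not overlap at all for 103 features higher (0.974%) and 16 lower (0.151%). The count of differing features was 1051 with signal over background as a covariate, with 569 higher and 482 lower, and 1113 without 19 dpf arrays 15 and 19, with 639 higher and 474 lower. Some features could be tested only through the age at which they were high, since 87 of those that differed exceeded the controls in under 8 of the 16 channels at 28 dpf and 246 did so at 19 dpf. The percentages above are the background for the gene groups that follow. Several features can carry the same description and may stem from the same transcript or from close paralogs, which spotted cDNAs do not separate, so counts of features are not counts of independent genes. Among features with a description 790 were higher and 696 lower. By distinct description the balance turned, with 524 among the higher and 602 among the lower.

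**Figure D1:**
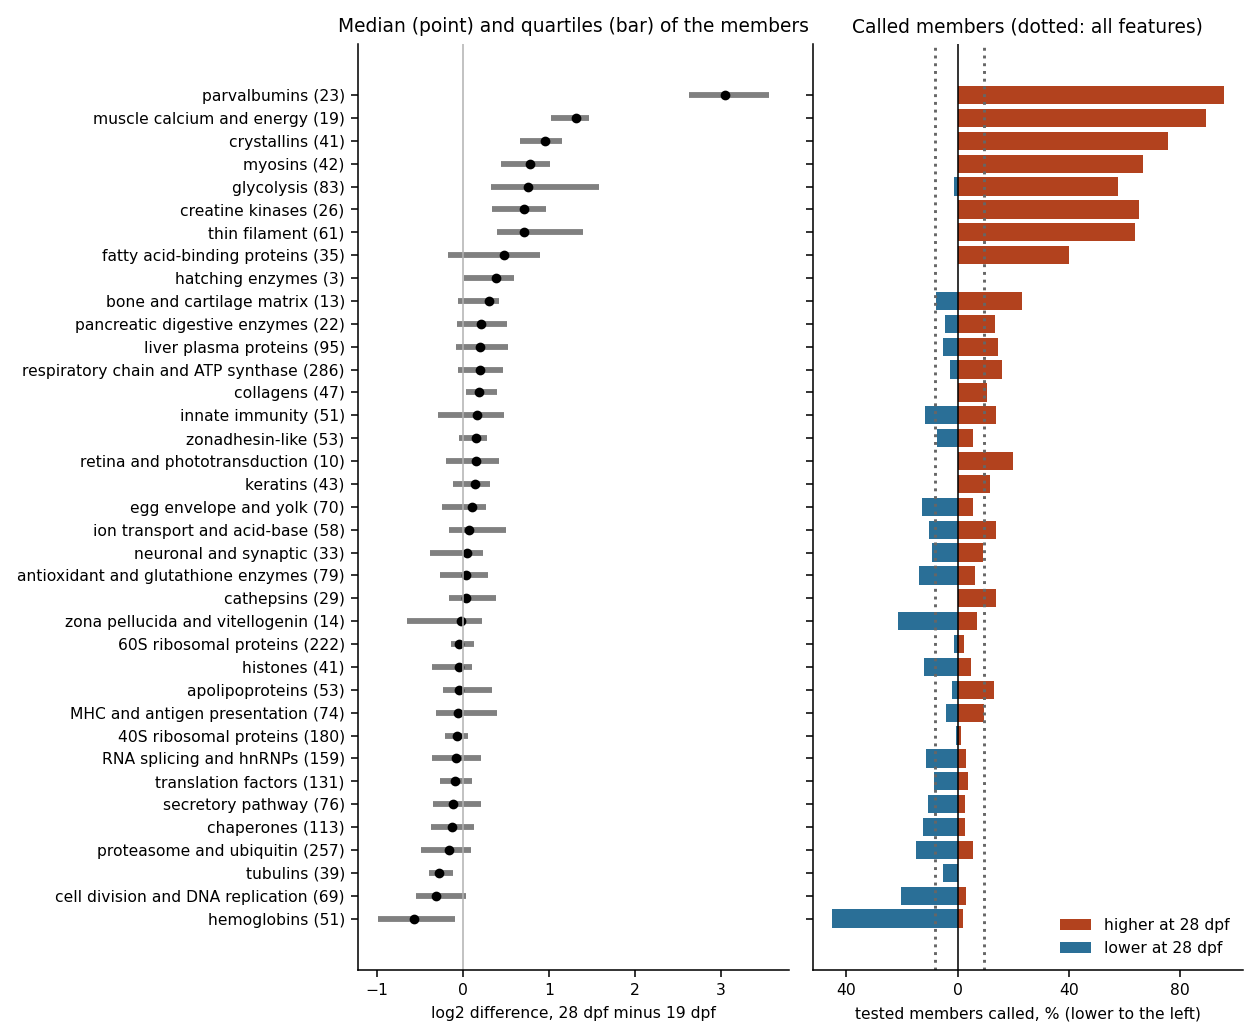
Gene groups at 28 dpf against 19 dpf. The left panel gives the median difference (28 dpf minus 19 dpf, log2) of the tested features of each group with the quartiles as bars, and the right panel gives the percentage of them called higher or lower, with dotted lines at the 9.37% and 8.2% of all features. Parvalbumins (median 3.04) and muscle calcium handling (1.32) lie farthest to the right, and hemoglobins (-0.56) farthest to the left.

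Genes of fast muscle contraction were higher at 28 dpf. All but 1 of the 23 tested parvalbumin features rose (95.7%, median difference 3.04), with no overlap between the ages for 20 of them. Parvalbumin-2 (CB509706) had the largest fitted difference, 4.20 ± 0.20 (SE, adjusted p = 3.97e-14). In 28 dpf embryos it lay between 12.65 and 14.23 with a median of 13.70 (n = 14), against 8.43 to 10.43 with a median of 9.41 in 19 dpf embryos (n = 16). At 19 dpf it exceeded the negative controls in only 3 of 16 channels, so its level there was close to that of the controls and the size of its difference is uncertain. The 2 other Parvalbumin-2 features named by the same rule behaved alike, with differences of 3.77 (CB497079) and 3.66 (CK991316). Parvalbumin beta 2 (CB509702) spanned 12.96 to 14.41 (median 13.89, n = 16) at 28 dpf, against 9.14 to 12.17 (median 10.10, n = 16) at 19 dpf, a difference of 3.49 ± 0.23 (adjusted p = 7.55e-12). For parvalbumin beta 1 (CA770081) the difference was 3.37 ± 0.26, and here 1 embryo of 19 dpf reached 12.73, still below the lowest 28 dpf embryo at 13.17. At 19 dpf CK991316 exceeded the controls in 6 of 16 channels, CB509702 in 8, and CB497079 and CA770081 in 9 each. The sizes of their differences are therefore uncertain too. The single member that did not pass, Parvalbumin-7, had a difference of 0.36. The count was 22 of 23 both with signal over background as a covariate and without 19 dpf arrays 15 and 19.

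Thin filament genes, which code for sarcomeric actins, troponins and tropomyosins, were higher for 39 of 61 tested features and lower for none (63.9%, median 0.71). Fast skeletal troponin I, the subunit that blocks the actin-myosin interaction at rest, led them (CB509543). Its values were 13.62 to 14.69 with a median of 14.19 at 28 dpf (n = 14) and 9.66 to 12.10 with a median of 10.52 at 19 dpf (n = 16), which gave a difference of 3.49 ± 0.26 (adjusted p = 2.64e-10) with no overlap. Further troponin I features followed with differences of 2.74 (CB496805), 2.50 (CB497726) and 2.87 (CB498120, described as the fast myotomal form of Salmo salar). At 19 dpf CB509543 exceeded the controls in only 7 of 16 channels, CB497726 in 6 and CB498120 in 8. Their levels there were close to those of the controls, so the sizes of these differences are uncertain. The remaining 22 features did not pass, and the lowest value among them was -1.62. Myosins, the motor proteins of the thick filament, were higher for 28 of 42 features and lower for none (66.7%, median 0.78). A fast skeletal myosin heavy chain (BU965792) spanned 12.92 to 14.22 (median 13.68, n = 12) at 28 dpf, against 10.00 to 12.31 (median 11.07, n = 16) at 19 dpf, with a difference of 2.51 ± 0.27 (adjusted p = 2.47e-07). Skeletal myosin light chain 3 (CB510287) differed by 2.04 ± 0.23, and its ages did not overlap either (12.94 to 14.39 at 28 dpf, 10.27 to 12.67 at 19 dpf). With the covariate 36 thin filament and 26 myosin features passed, and without arrays 15 and 19 the counts were 35 and 20.

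Calcium storage and the supply of phosphate energy moved in the same direction. Of 19 tested features for calsequestrin, a histidine-rich calcium-binding protein and the calcium pumps SERCA1 and SERCA2, 17 were higher (89.5%, median 1.32) and none lower. Calsequestrin-1, which binds calcium inside the sarcoplasmic reticulum, had values of 13.16 to 14.47 (median 13.67, n = 16) at 28 dpf, against 11.77 to 13.40 (median 12.41, n = 16) at 19 dpf (CB494288, difference 1.35 ± 0.17, adjusted p = 1.21e-06). The distributions touched, since the highest 19 dpf embryo exceeded the lowest 28 dpf embryo. SERCA1, the pump that returns calcium to the reticulum of fast fibres, differed by 1.35 ± 0.20 without overlap (CK991344, 13.05 to 14.32 at 28 dpf, 11.13 to 12.98 at 19 dpf). Creatine kinases, which rebuild ATP from phosphocreatine, were higher for 17 of 26 features (65.4%, median 0.71) and lower for none. The muscle form (CB494390) was already strong at 19 dpf, where it spanned 12.67 to 14.30 (n = 14), against 14.58 to 15.33 at 28 dpf (n = 14), a difference of 1.37 ± 0.16 (adjusted p = 1.25e-06). Brain-type creatine kinase rose less, by 0.94 for both named features (CA058389 and CB510886). Both with the covariate and without arrays 15 and 19, 16 calcium handling features were higher, and the creatine kinase counts were 16 and 15.

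**Figure D2:**
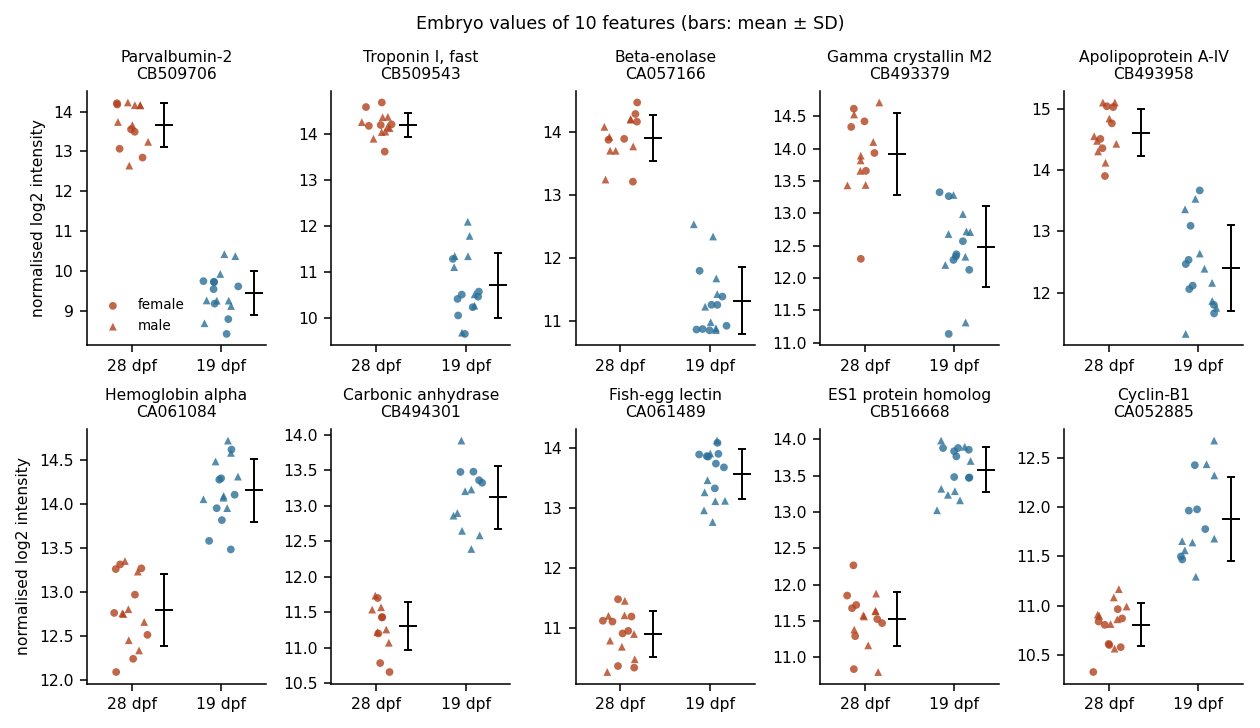
Normalised log2 intensity of 10 features in each embryo at 28 dpf (left in each panel) and 19 dpf (right). Circles are females and triangles males, and the bars give mean ± SD. Parvalbumin-2, troponin I, beta-enolase and apolipoprotein A-IV lie higher at 28 dpf and hemoglobin alpha, carbonic anhydrase, fish-egg lectin, ES1 and cyclin-B1 lower, all without overlap, whereas the ranges of gamma crystallin M2 overlap.

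Glycolysis, the pathway that feeds fast muscle when it works without oxygen, was represented by 83 tested features, of which 48 were higher and 1 was lower at 28 dpf (59%, median 0.76). The ages did not overlap for 15 of them. Beta-enolase, the muscle form of the enzyme, had values of 13.21 to 14.47 (median 13.91, n = 14) at 28 dpf, against 10.86 to 12.54 (median 11.25, n = 16) at 19 dpf (CA057166, difference 2.59 ± 0.25, 6.03-fold, adjusted p = 1.60e-08). The 4 beta-enolase features were all higher, with differences between 1.48 and 2.59. Glyceraldehyde-3-phosphate dehydrogenase, often taken as a reference gene, was far from constant. One of its features (CA039027) spanned 12.78 to 14.42 (median 13.89, n = 14) at 28 dpf, against 9.69 to 11.81 (median 10.77, n = 14) at 19 dpf, a difference of 2.81 ± 0.27 (adjusted p = 4.77e-08), and a cytosolic 2 form (CB493574) differed by 1.70 ± 0.15. Of the 24 features with the plain description, 16 were higher and 7 did not pass, while CA051001, singled out after its value was seen, was lower by 1.11 (adjusted p = 8.40e-05). All 6 aldolase A features, the muscle form, were higher, as were 2 of 6 for aldolase B, known from liver. With the covariate 40 glycolysis features were higher and 1 lower, and without arrays 15 and 19 the counts were 43 and 1.

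Respiratory chain and ATP synthase features formed a broader and weaker group. Of 286 tested, 46 were higher (16.1%) and 8 lower (2.8%), and the group median was 0.20. The median turned to -0.39 with loess alone, a scaling that leaves the channels of different arrays at their own level and shifts the median of all features to -0.59, so that relative to all features it stayed at 0.20. Cytochrome c, the mobile electron carrier, was among the most abundant signals, with 14.77 to 15.46 at 28 dpf (median 15.14, n = 10) and 12.16 to 13.93 at 19 dpf (median 13.13, n = 16), a difference of 1.98 ± 0.21 (CB510558, adjusted p = 4.57e-07). Cytochrome c oxidase subunit VIa followed with 1.86 (CB496806). One feature described as NADH dehydrogenase 1 alpha subunit 4 went the other way by 2.44 ± 0.23 (CB495182, adjusted p = 1.81e-08), with 9.16 to 11.55 at 28 dpf (median 10.36, n = 16) and 11.99 to 13.44 at 19 dpf (median 12.77, n = 14). Another feature of that description, CB496804, was higher by 1.21, so the description does not fix the direction here. At 28 dpf CB495182 exceeded the controls in only 9 of 16 channels, so the size of its difference is uncertain. The difference of CB496806 ran from 0.83 to 2.295 over the alternative settings. With the covariate 21 respiratory chain features were higher and 8 lower, and without arrays 15 and 19 the counts were 24 and 4.

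**Figure D3:**
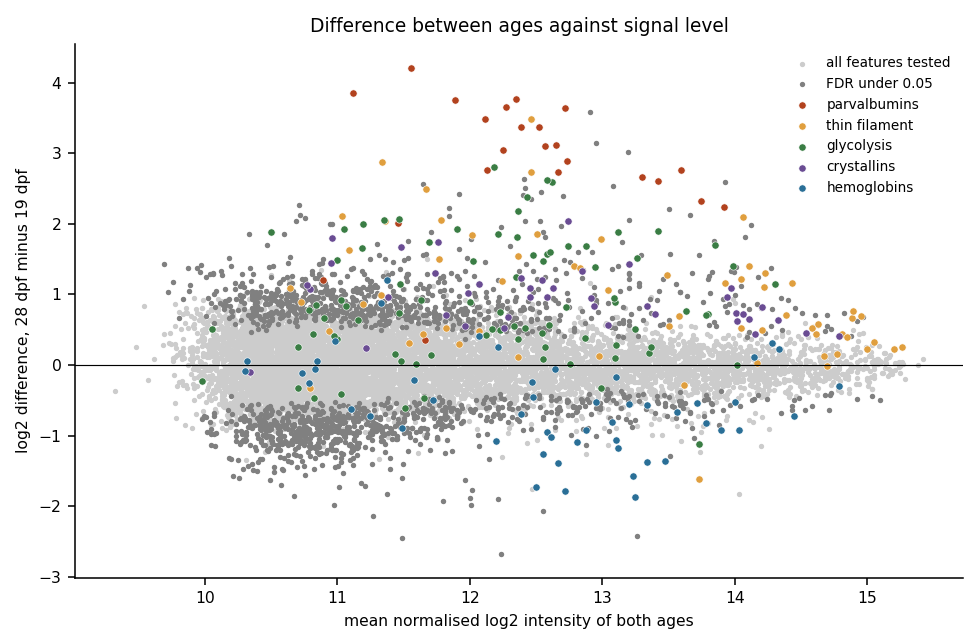
Difference between 28 dpf and 19 dpf embryos (log2) of every tested feature against its mean level (log2 normalised intensity), with 5 gene groups coloured. Parvalbumins lie up to 4.20 above 0, hemoglobins mostly below 0, and features of all levels differ in both directions.

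Lens genes were higher at 28 dpf for most features. Crystallins, the structural proteins of the lens, were higher for 31 of 41 tested features and lower for none (75.6%, median 0.96), yet no crystallin separated the ages completely. Gamma crystallin M2 (CB493379) lay between 12.30 and 14.71 (median 13.91, n = 14) at 28 dpf and between 11.13 and 13.33 (median 12.47, n = 16) at 19 dpf, a difference of 1.44 ± 0.25 (adjusted p = 0.000193). Embryos varied strongly within each age for this gene (SD 0.63 at both). Gamma crystallin M3 (CB510792) differed by 0.97, all 6 beta crystallin A4 and all 5 beta crystallin S features were higher, and the single features of beta crystallins A1-2, A3, B1 and B3 did not pass. The count fell to 22 with the covariate and 21 without arrays 15 and 19. Of 10 retinal features tested, 2 were higher (20%, against 17.6% of all features called): the gamma subunit of rod transducin (CB509568, 1.08) and the gamma subunit of rod phosphodiesterase (CB509956, 0.82), both parts of the cascade that follows light capture by rhodopsin. A further 13 retinal features on the array did not exceed the controls often enough to be tested.

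The 33 neuronal and synaptic features were split, with 3 higher and 3 lower (18.2%, near the 17.6% of all features). Beta-synuclein, a presynaptic protein, was higher by 1.22 (CB497104) and 0.998 (CB494463), and the brain fatty acid-binding protein by 0.56 (CB492854, 14.72 to 15.20 at 28 dpf, 14.05 to 14.64 at 19 dpf, with no overlap). The features that were lower were all of myelin proteins, namely myelin P0 (CB511910, -0.79, and CA062457, -0.96) and myelin proteolipid protein (CB512148, -0.84), whose adjusted p lay between 0.0336 and 0.0483. These 3 were looked up after their values were seen. The list gave 3 higher and 1 lower with the covariate, and 5 higher and 0 lower without arrays 15 and 19, so that none of these 3 was then lower.

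Features for liver plasma proteins and apolipoproteins were called at shares near the 17.6% of all features. Of 95 features for liver plasma proteins 14 were higher and 5 lower (20%, median 0.20). Serotransferrin, the iron carrier of plasma, spanned 14.06 to 15.09 (median 14.64, n = 14) at 28 dpf, against 12.29 to 14.25 (median 13.34, n = 14) at 19 dpf (CB497986, difference 1.33 ± 0.20, adjusted p = 3.96e-05). Alpha-2-HS-glycoprotein, a plasma protein that binds calcium phosphate, differed by 1.23 without overlap (CB497571), and serum albumin 1 by 0.91 with overlap (CA038058). Among 53 apolipoprotein features, which carry lipid in the blood and yolk, 7 were higher and 1 lower (15.1%), and their median was -0.04. Apolipoprotein A-IV (CB493958) stood apart from the rest, with 13.90 to 15.10 (median 14.53, n = 14) at 28 dpf, against 11.33 to 13.67 (median 12.28, n = 16) at 19 dpf, a difference of 2.21 ± 0.21 (4.61-fold, adjusted p = 1.60e-08). Apolipoprotein A-I was higher by 0.76 (CB510992), but it was not called with the covariate, in Cy5 alone or with loess alone. With the covariate 6 liver plasma features were higher and 2 lower, and 2 apolipoprotein features higher and 4 lower. Without arrays 15 and 19 the counts were 8 higher and 2 lower for liver plasma and 4 higher and 0 lower for apolipoproteins.

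Fatty acid-binding proteins, which carry fatty acids inside cells, were higher for 14 of 35 features and lower for none (40%, median 0.47), against 7 with the covariate and 9 without arrays 15 and 19. Intestinal fatty acid-binding protein was higher without overlap, at 13.02 to 13.84 (median 13.40, n = 16) in 28 dpf embryos and 12.02 to 12.96 (median 12.48, n = 16) in 19 dpf embryos (CB498606, 0.93 ± 0.14, adjusted p = 2.49e-05). The liver form was higher by 1.29 (CA038193). Pancreatic digestive enzymes were often too weak to test, since only 22 of 55 features qualified. Of these 3 were higher, all trypsins, and 1 was lower (18.2%, near the 17.6% of all features). Trypsin (CK990912) exceeded the controls in 5 of 16 channels at 19 dpf and in 15 at 28 dpf, and differed by 1.44 ± 0.29 (adjusted p = 0.00135), with 10.61 to 12.23 at 28 dpf (n = 14) and 9.07 to 11.76 at 19 dpf (n = 16). The Trypsin-3 features CB498626 and CB509728 were higher by 1.41 and 1.04, and neither was called with the covariate. The list then gave 1 higher and 0 lower, and 2 higher and 0 lower without arrays 15 and 19.

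Skin, cartilage and bone matrix genes were represented by 3 lists. Keratins were higher for 5 of 43 features (11.6%, median 0.14) and collagens for 5 of 47 (10.6%, median 0.19), with none lower, shares close to the 9.37% of all features that were higher. Type X collagen, known from hypertrophic cartilage and forming bone, was higher by 1.20 (CB494335) and 1.02 (CB492605), and type XI, a cartilage collagen, by 1.06 (CB497228). Of 13 bone and cartilage matrix features 3 were higher and 1 lower (30.8%, median 0.31). Those that were higher were all of SPARC, a collagen-binding protein of mineralising matrix, the clearest by 1.17 (CB500999), and cartilage acidic protein 1 (CB516597) was lower by 0.79. With the covariate this list gave 1 higher and 1 lower and keratins 0 higher and 1 lower, while 5 collagen features were higher. Cartilage acidic protein 1 (CB516597) was not called with the covariate, so the bone and cartilage feature that was then lower was another one. Without arrays 15 and 19 the counts were 2, 3 and 5 higher for bone and cartilage, keratins and collagens, and none lower. The type X collagen feature CB492605 was not called without these arrays, so the 5 collagen features then higher were not all the same ones.

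Genes of the red cell were the clearest group on the lower side. Of 51 tested hemoglobin features 23 were lower and 1 higher at 28 dpf (47.1%, median -0.56). An alpha chain (CA061084) spanned 12.09 to 13.35 (median 12.76, n = 16) at 28 dpf, against 13.48 to 14.72 (median 14.09, n = 16) at 19 dpf, a difference of -1.35 ± 0.16 (adjusted p = 6.96e-07) without overlap. A further alpha feature (CB493961) was lower by 1.57 and also separated the ages, at 11.52 to 13.25 in 28 dpf embryos and 13.43 to 14.58 in 19 dpf embryos (n = 12 each). Chains differed from each other in the share of features called. Of 14 features described simply as subunit alpha 11 were lower, as were 5 of 9 for beta, 2 of 11 for alpha-4 and 1 of 8 for beta-1. Both features described as the embryonic alpha subunit (CB493225 and CB492747) missed the threshold, with 0.31 ± 0.19 and 0.23 ± 0.19 and means of 14.43 and 14.45 at 28 dpf and 14.14 and 14.22 at 19 dpf. The 1 feature called higher (CB496430, 0.89) carried the plain alpha description. The group gave 28 lower and 1 higher with the covariate, and 22 lower and 1 higher without arrays 15 and 19.

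Carbonic anhydrase, which speeds the exchange of carbon dioxide and bicarbonate and is abundant in red cells and gills, was lower for 5 of 8 features, and the other 3 did not pass, with differences of -0.18 (CB497833), -0.34 (CB494032) and -0.51 (CB501928). The feature CB494301 had values of 10.65 to 11.73 (median 11.34) at 28 dpf, against 12.39 to 13.92 (median 13.22) at 19 dpf (n = 12 each), a difference of -1.89 ± 0.24 (adjusted p = 8.95e-06). Carbonic anhydrase 2 (CB511006) differed by -1.13 ± 0.17, with 11.81 to 12.85 at 28 dpf and 13.03 to 14.18 at 19 dpf and no overlap. In the same list of ion transport genes 8 of 58 features were higher, all of them subunits of sodium/potassium ATPase or of the vacuolar proton pump, which drive ion uptake. The alpha-1 subunit of sodium/potassium ATPase (CB517724), looked up after its value was seen, was higher by 1.12. Its call was not followed in the alternative settings. The 6 that were lower were 5 carbonic anhydrase features and 1 subunit of the proton pump. In total 24.1% of the list was called, against 17.6% of all features. With the covariate the list gave 3 higher and 5 lower, and without arrays 15 and 19 it gave 5 higher and 4 lower.

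The largest differences on the lower side included genes other than globins. Fish-egg lectin, a sugar-binding protein stored in the egg, had the largest of all, -2.67 ± 0.21 (CA061489, 6.35-fold, adjusted p = 1.67e-10). Its values were 10.26 to 11.48 (median 10.93, n = 16) at 28 dpf, against 12.77 to 14.13 (median 13.71, n = 16) at 19 dpf. The other fish-egg lectin feature (CB503169) was lower by 1.67, and a feature named only as lectin precursor (CK990666) by 1.77 ± 0.20, with 10.60 to 11.86 at 28 dpf and 12.22 to 13.43 at 19 dpf. The 3 other lectin precursor features did not pass, with -0.35 (CB491356), -0.47 (CB507236) and -0.58 (CB507188). Of all 70 tested features of the egg envelope and yolk list, which holds the fish-egg lectins, 9 were lower and 4 higher (18.6%), and their median was 0.11. Most of the 70 tested features were zonadhesin-like, and of those 53 features 4 were lower and 3 higher (13.2%, against 17.6% of all features, median 0.16). The 14 zona pellucida and vitellogenin features gave 3 lower and 1 higher (28.6%, median -0.03). Zona pellucida protein 4 (CB490086, -1.82 ± 0.29) and protein 3 (CB508658, -0.77) were lower and protein 2 (CB508069, 1.18) was higher. The ES1 protein homolog, a mitochondrial protein, was lower for all 4 of its features, by 0.86 to 2.06. The clearest (CB516668) lay at 10.80 to 12.26 (median 11.57, n = 16) in 28 dpf embryos and 13.02 to 13.98 (median 13.59, n = 16) in 19 dpf embryos (-2.06 ± 0.17, adjusted p = 2.94e-10). All 3 flavin reductase features were lower as well, the clearest by 1.41 ± 0.20 (CB516700, adjusted p = 7.48e-06).

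Genes of cell division and DNA replication were lower for 14 of 69 features and higher for 2 (23.2%, median -0.32). Cyclin-B1, which drives entry into mitosis, spanned 10.33 to 11.17 (median 10.85, n = 16) at 28 dpf, against 11.29 to 12.67 (median 11.73, n = 14) at 19 dpf (CA052885, -1.07 ± 0.17, adjusted p = 8.99e-05). A second cyclin-B1 feature (CA055971) was lower by 0.75, and the third had -0.47 with an adjusted p of 0.0519. Geminin, which blocks a renewed start of replication, was lower by 1.47 (CB491775). The replication helicase subunit mcm6-B was measured by features that disagreed, CB497401 higher by 1.603 and CB488219, looked up after its value was seen, lower by 1.34. The group gave 13 lower and 1 higher with the covariate, and 12 and 1 without arrays 15 and 19.

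Few ribosomal protein genes differed between the ages. Of 180 features for 40S ribosomal proteins 2 were higher and 1 was lower (1.67%), and of 222 for 60S proteins 5 were higher and 3 lower (3.6%), against 17.6% of all features. Their medians were -0.07 and -0.04. Translation factors were lower for 11 of 131 and higher for 5 (12.2%), with scaffold factor eIF4G1 lower by 1.45 (CB496042). Proteasome and ubiquitin genes, which tag and degrade proteins, were lower for 38 of 257 features and higher for 14 (20.2%, median -0.16), and chaperones, which fold proteins, lower for 14 of 113 and higher for 3 (15%, median -0.12). Among chaperones, HSP 90-beta was lower by 0.63 (CB493619) and the epsilon subunit of the cytosolic chaperonin by 0.81 (CK991357). With channels centred on their median, a scaling that put the median of all features at 0.149, neither of these features was called. Chaperones then gave 0 lower and 4 higher, with a median of -0.015. RNA splicing factors were lower for 18 of 159 and higher for 5 (14.5%), with splicing factor 3A subunit 2 lower by 0.96 (CA051247). With the covariate proteasome and ubiquitin genes gave 19 lower and 8 higher, chaperones 9 and 1, translation factors 6 and 2 and splicing factors 6 and 2. Without arrays 15 and 19 these counts were 22 and 9, 6 and 1, 4 and 4, and 8 and 0 in that order.

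Immune genes were mixed in direction. Of 51 innate immunity features 7 were higher and 6 lower (25.5%, against 17.6% of all features). A CC chemokine (CB509719), looked up after its value was seen and not followed in the alternative settings, was higher by 1.26. Lectins made up 5 of the 6 that were lower, the fish-egg lectins among them. With the covariate 2 innate immunity features were higher and 6 lower, and without arrays 15 and 19 the counts were 1 and 6. Antigen presentation genes were higher for 7 of 74 and lower for 3 (13.5%, median -0.05). The MHC class II gamma chain (invariant chain), which escorts class II molecules, was higher without overlap in CB497250, with 13.57 to 14.77 (median 14.25, n = 14) at 28 dpf, against 10.96 to 13.25 (median 12.05, n = 14) at 19 dpf (2.06 ± 0.21, adjusted p = 1.14e-07), whereas CA769983 of the same description, looked up after its value was seen, was lower by 1.004. Beta-2-microglobulin, the light chain of class I molecules, was higher by 1.05 (CB498391). Cathepsins, the proteases of lysosomes, were higher for 4 of 29 features and lower for none (13.8%, against 17.6% of all features, median 0.03). Those that were higher included cathepsins L (CK990727, 1.08), D (CB502979, 1.04) and B (CB493838, 1.02).

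Hatching enzymes did not pass the test. Only 3 of the 9 features on the array exceeded the controls often enough to be tested, and none was called. High choriolytic enzyme 1 (CB510964) averaged 11.56 at 28 dpf and 10.75 at 19 dpf, a difference of 0.80 ± 0.30 with an adjusted p of 0.0587, and it exceeded the controls in 15 of 16 channels at 28 dpf and 11 of 16 at 19 dpf. The other tested feature of that enzyme (CA048927) had -0.36 ± 0.43 and high choriolytic enzyme 2 (CK991012) had 0.39 ± 0.23. With channels centred on their median, 1 of the 3 was called higher. The single low choriolytic enzyme feature exceeded the controls in 5 channels at 28 dpf and 3 at 19 dpf and was not tested. Untested features of high choriolytic enzyme 1 did so in 11 and 4 channels in that order (CB515629), 9 and 5 (CK990640), 7 and 7 (CB488716) and 2 and 6 (CB508089). An untested feature of high choriolytic enzyme 2 did so in 2 and 0 (CB506409).

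Some of the largest differences carried descriptions that other features of the same name did not bear out. The feature described as 26S proteasome non-ATPase subunit 12 (CB496882) was higher by 3.59 ± 0.27 (adjusted p = 3.29e-10), with 14.26 to 15.09 (median 14.67, n = 16) at 28 dpf, against 9.57 to 12.83 (median 10.80, n = 12) at 19 dpf. The 2 other features with this description had differences of -0.03 (CB494252) and -0.25 (CB515805) and did not pass. Likewise, MOSC domain-containing protein 1 (CB493828) was higher by 3.15, transmembrane 4 L6 family member 4 (CB493845) by 2.64, tryptophanyl-tRNA synthetase (CK991270) by 2.59 and the BET1 homolog (CB496839) by 2.53, the ages not overlapping for any of them. No other feature named for these 4 was called. Over the whole array, 790 descriptions had at least 3 tested features, and of the 160 among them with 2 or more features called, 129 were called one way only and 31 both ways. Cytoplasmic actin 1, used as the reference gene for quantitative PCR in the study, had 13 tested features, of which 11 did not pass, 1 was higher by 0.51 (CB512174) and 1 was lower by 0.54 (CB497624).

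**Figure D4:**
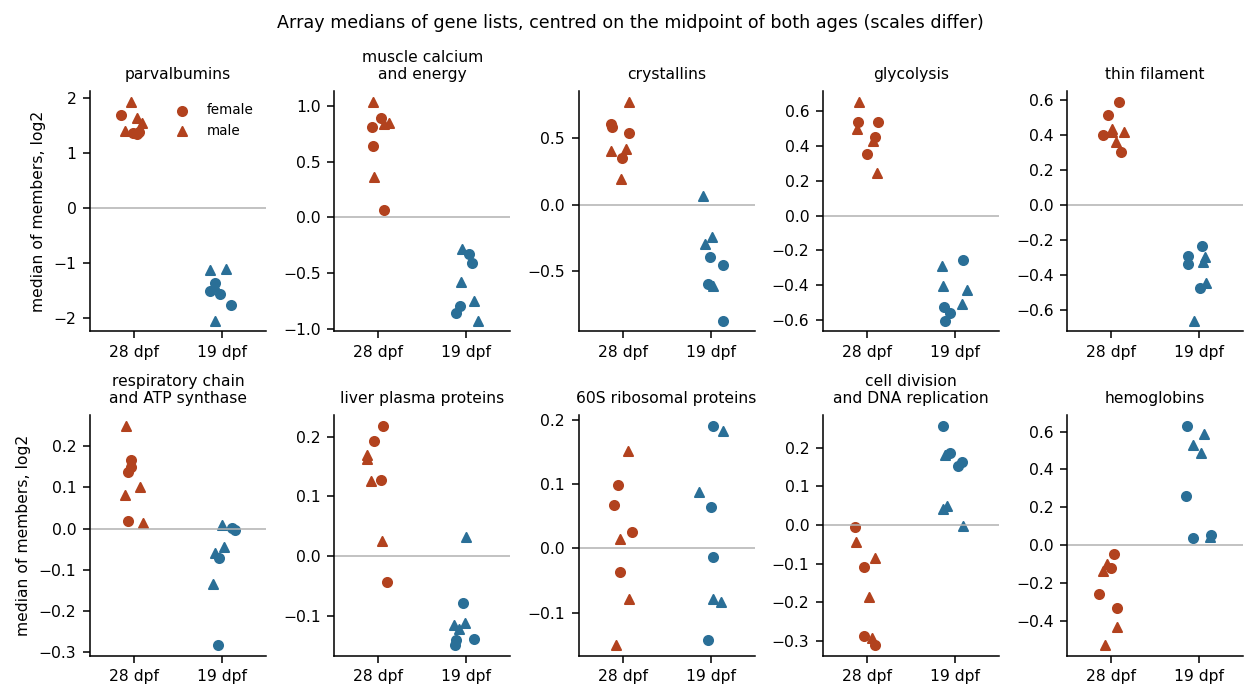
Median level of 10 gene groups on each array (log2, centred on the midpoint between the ages), with the 8 arrays of 28 dpf to the left of the 8 arrays of 19 dpf. Parvalbumins span 1.35 to 1.94 at 28 dpf and -2.05 to -1.12 at 19 dpf, the ages overlap in the liver plasma protein and 60S ribosomal protein panels, and they all but touch for cell division and the respiratory chain. Circles are arrays of females and triangles arrays of males, and the scales differ between panels.

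Array by array, group medians kept the ages apart for muscle, lens, glycolysis and globin genes. Centred on the midpoint between the ages, the parvalbumin median of the 8 arrays was 1.35 to 1.94 at 28 dpf and -2.05 to -1.12 at 19 dpf, and the glycolysis median 0.24 to 0.65 at 28 dpf and -0.60 to -0.26 at 19 dpf. For crystallins the gap was narrow, with 0.19 to 0.77 at 28 dpf and -0.87 to 0.07 at 19 dpf. Hemoglobins ran in the other direction, at -0.53 to -0.05 on 28 dpf arrays and 0.04 to 0.63 on 19 dpf arrays. Fatty acid-binding proteins, liver plasma proteins, keratins and collagens overlapped between the ages on this measure.

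The same differences were examined within each sex and each genotype. Among females alone 1599 features differed (15.1%) and among males alone 317 (3%), and within OSU/CW embryos 994 (9.4%) and within OSU/OSU embryos 1447 (13.7%). The median size of the 1858 differences, which were chosen over all embryos, was 1.04 for females, 0.67 for males, 0.83 for OSU/CW and 0.91 for OSU/OSU embryos. The counts alone do not show that the sexes differed in their change with age, which was tested as an interaction. This called 1 feature (0.00945%), while 842 (7.96%) had an unadjusted p under 0.05. For the interaction with genotype limma called 0 features, and 525 (4.96%) had an unadjusted p under 0.05. The called feature was Cornichon homolog 4 (CA063234), a protein that helps cargo leave the endoplasmic reticulum. Females lay at 8.62 to 10.29 (median 9.53, n = 6) at 28 dpf and 10.37 to 11.08 at 19 dpf, and males at 10.86 to 11.27 (median 11.12, n = 8) at 28 dpf and 9.80 to 10.82 at 19 dpf. The change with age in females minus that in males was -1.93 ± 0.32 (limma across all features, adjusted p = 0.0239), and this call was lost in 21 of 32 alternative settings, with an adjusted p of up to 0.515. For genotype the smallest p belonged to glycerol-3-phosphate dehydrogenase 1-like (CA059357), with 1.05 and an adjusted p of 0.273.

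**Figure D5:**
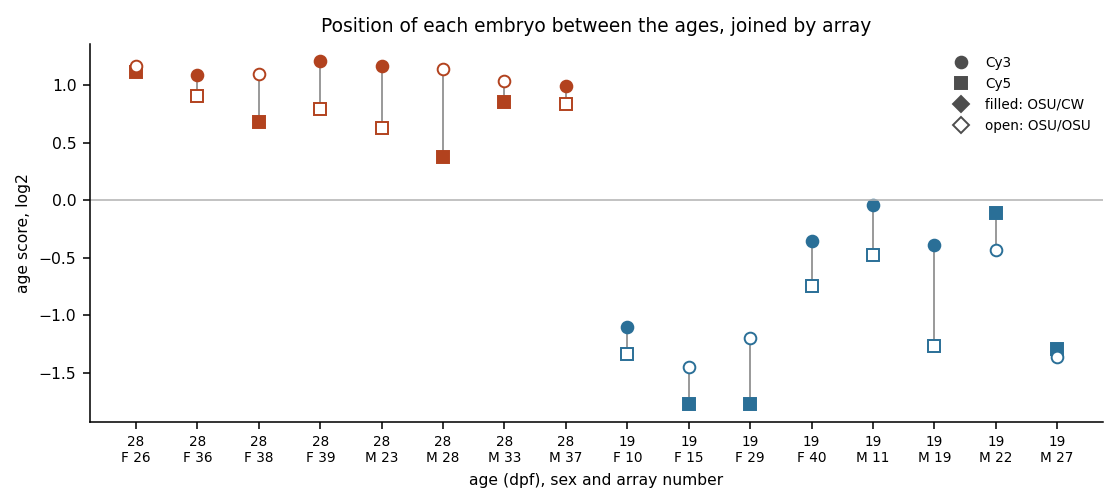
Position of each embryo on the axis between the ages (0 is the midpoint). The score is the mean over features called higher minus the mean over features called lower. Lines join the 2 embryos of an array, filled symbols are OSU/CW and open ones OSU/OSU, circles are Cy3 and squares Cy5. The 28 dpf embryos lie between 0.38 and 1.21 and the 19 dpf embryos between -1.78 and -0.04, with the 19 dpf embryos of arrays 11, 22 and 40 and the OSU/CW embryo of array 19 above the others of their age.

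Finally, each embryo was placed on the axis between the ages by its values of the differing features, as a description without a test since the ages chose those features. The score was the mean over features called higher minus the mean over features called lower, each centred on the midpoint between the ages. It therefore adds the rise and the fall and is not the mean difference of a feature. The 28 dpf embryos were close together, from 0.38 to 1.21 with a median of 1.01 (n = 16). Those of 19 dpf were spread more widely, from -1.78 to -0.04 with a median of -1.15 (n = 16). Both embryos of arrays 11, 22 and 40 and the OSU/CW embryo of array 19 were nearer to the older embryos than the others of their age. Among 19 dpf arrays, signal over background (mean of both channels) was highest on arrays 22 (2.79), 40 (2.35) and 11 (1.93). Array 27 was next with 1.90, and array 19 had 1.42. Whether signal over background bears on these positions was not tested. Within an array, the OSU/CW embryo stood ahead of its OSU/OSU partner on 4 of 8 arrays at 28 dpf (median difference 0.05) and on 6 of 8 at 19 dpf (median difference 0.28). At both ages all 4 arrays that had the OSU/CW embryo in the Cy3 channel had it ahead. With OSU/CW in Cy5 it was behind on all 4 arrays of 28 dpf and on 2 of 4 of 19 dpf (arrays 15 and 29), so that dye and order ran together, and their separate parts were not tested.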

How the data were processed

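Whole-embryo total RNA was hybridised to the 2-colour cGRASP 16K salmonid cDNA array. The authors deposited the scanner output of each channel as spot intensity with local background, and these intensities were not normalised. The methods describe removal of features under the 90th percentile of negative controls and a mixed model with dye, treatment and array. Here, in R 4.3.3 with limma 3.58.1, background was corrected by normexp with offset 50, followed by loess within arrays and Aquantile between arrays. Spots marked poor were left out, and spots of 1 EST were averaged. Features had to exceed the 90th percentile of 1021 negative control spots in at least 16 of 32 channels, and to be measured on 2 or more arrays per sex within each age. The fit held 8 groups of age, sex and genotype plus dye, with the array as a random block (within-array correlation 0.536), and 28 dpf minus 19 dpf was tested at a false discovery rate of 0.05. Signal over background per channel was 1.20 to 4.83, and the number of arrays limits the precision. Embryos, labelled by separate numbers, are the replicates, but all come from 1 family. The fit was tested on simulated data.

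Features were named by rule: in each direction the 12 largest differences among called features with a description, at least 12 values at each age and no overlap, 1 per description; the 3 called members of smallest p in each gene list; cytoplasmic actin 1; and the 3 features of smallest p in each interaction. Others were looked up after their values were seen. The gene lists and the comparison itself were chosen with earlier results of these data known. Alternatives covered background correction, scaling, filter, poor spots, dye, single channels, array means, all 24 arrays, single sexes and genotypes, and each array left out. Leaving out 19 dpf arrays 15 and 19, which had signal over background under 1.5, and signal over background as a covariate were added after seeing the data. Descriptions are those of the array design, and none of its EST identifiers was found in the RefSeq gene table used here, so no sequence or position is given. The series value table was not used here.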

Additional observations from a re-analysis of the deposited data

Results flagged for a closer look

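Groups of 8 arrays were searched for 1 array far from the others in signal over background and in the gene group medians, and 4 of 80 groups held one, where chance flags about 1 in 20. In the Cy3 channel, 28 dpf array 36 had a signal over background of 4.83, while the next array had 2.91 and the lowest 2.02. The creatine kinase median of 19 dpf array 40 was 0.001 against -0.256 on the next array and -0.481 on the lowest, so this array lay nearest to the 28 dpf arrays. The innate immunity median of 19 dpf array 27 was 0.125 against -0.033 and -0.174, and the liver plasma protein median of 19 dpf array 11 was 0.032 against -0.078 and -0.148. Cornichon homolog 4 (CA063234) was the only feature whose change with age differed between the sexes in the interaction test, by -1.933 (females minus males).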

How the results depend on the processing

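Of the 117 named features that were called, 56 kept direction and call in every alternative that tested them, and none changed sign where tested. A feature was not tested in every alternative, and detection in all 32 channels tested only 28 of the 117, all of which kept direction and call. Against 1858 calls (991 higher, 867 lower), leaving out 1 array gave 1309 to 2233 calls, with 748 to 1244 higher and 561 to 989 lower (561 without 19 dpf array 27). No background subtraction gave 556 lower among 1332 calls. Loess alone, which leaves the median of all features at -0.589, gave 4226 calls, 147 higher and 4079 lower, 3.48% higher against 53.3%. Features detected in all 32 channels gave 421 (163 higher, 258 lower, 38.7% higher) of 2418 tested. Channels centred on their median gave 65.4% higher. The Cy5 channel alone gave 534 (361 higher, 173 lower, 67.6% higher). Leaving out 19 dpf arrays 15 and 19 gave 1113 (639 higher, 474 lower) and signal over background as a covariate 1051 (569 higher, 482 lower). Males alone gave 317, OSU/CW embryos alone 994, and a false discovery rate of 0.01 785. The rule in the study's methods gave 409, applied here to the groups of these ages without the 15 dpf embryos. It took a joint test at a false discovery rate of 0.05, then 28 pairs of groups at 0.2. Features counted had at least 1 of the 4 pairs of the same sex and genotype called. All 409 that passed the joint test were counted. The signal over background difference was 0.14 in Cy5 alone (exact permutation p = 0.5253). The interaction with sex gave 0 calls with no background subtraction, loess alone, median centring, no filter, detection in all channels, poor spots kept, array means with or without moderation, all 24 arrays, and arrays 15 and 19 left out, 2 with Cy3 alone, 3 with Cy5 alone, and 0 to 2 with 1 array left out. The interaction with genotype gave 0 to 1 with 1 array left out (1 without 19 dpf array 29). Medians changed sign with loess alone for collagens (-0.216), bone and cartilage (-0.118), fatty acid-binding proteins (-0.141), pancreatic enzymes (-0.48), liver plasma proteins (-0.343), innate immunity (-0.485), respiratory chain (-0.385) and zonadhesin-like genes (-0.532). All 8 stayed positive relative to the median of all features (0.374, 0.471, 0.448, 0.109, 0.247, 0.105, 0.204 and 0.058 in that order). With detection in all channels, where the median of all features was -0.0469, medians below 0 were found for fatty acid-binding proteins (-0.0576), pancreatic enzymes (-0.253), innate immunity (-0.052) and the respiratory chain (-0.0137). The tubulin median was 0.0169 with median centring and the zonadhesin-like median -0.0263 with Cy3 alone. Except where the number of features or samples fell by construction, the cause was not tested. No paired analysis was possible because array numbers are not shared between the ages. The detection filter left 3 of 9 hatching, 22 of 55 pancreatic and 10 of 23 retinal features.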

Other observations

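Tubulins, the subunits of microtubules, had 39 tested features, of which 2 alpha chains were lower at 28 dpf, by 0.56 (CA047720) and 0.48 (CA058890), and none was higher (5.13%, against 17.6% of all features). The median of the list was -0.28. Both calls were lost in 10 or more of 33 alternatives, with single arrays left out among them. No tubulin was called without 19 dpf arrays 15 and 19, while 3 were lower and 0 higher with signal over background as a covariate. Antioxidant and glutathione enzymes were lower for 11 of 79 features and higher for 5 (20.3%, median 0.04). Glutathione peroxidases made up 5 of the 11, with glutathione peroxidase 3 lower by 1.16 (CA052877), while glutathione transferase omega-1 was higher by 0.89 (CB498044). With signal over background as a covariate this list gave 5 lower and 1 higher, and without arrays 15 and 19 it gave 5 lower and 2 higher. Glutathione transferase omega-1 (CB498044) was not called with the covariate, so the feature that was then higher was another one. Histones were lower for 5 of 41 features and higher for 2 (17.1%, near the 17.6% of all features). Both that were higher were H1.0 (CB491022, 1.12, and CK990499, 0.82), a linker histone known from cells that have stopped dividing. A histone H1 was lower by 0.86 (CA048620). CB491022 was not called with the covariate or in either channel alone, and CK990499 was not called in Cy3 alone. Histones gave 5 lower and 1 higher with the covariate, and 6 lower and 2 higher without arrays 15 and 19. Secretory pathway genes were lower for 8 of 76 features and higher for 2 (13.2%).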
